A study of Drosophila melanogaster with 12 samples.

Results

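Gene expression in fly heads at night was compared between a light/dark day and the following day of constant darkness. The study sampled Drosophila melanogaster of the yellow white (y w) genotype, which carries mutations in the body colour gene yellow and the eye colour gene white. All flies had been held for 3 days in 12 h of light and 12 h of dark. They were then collected every 4 h through a further light/dark day (LD) and through a day in constant darkness (DD), with 1 array of 100 to 200 pooled heads per time point. LD hours are Zeitgeber times (ZT), counted from lights-on, and DD hours are circadian times (CT), counted from the hour at which lights would have come on.

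The comparison takes the arrays at clock hours 16, 20 and 24, which are 6 of the 12 arrays. ZT16, ZT20 and ZT24 were set against CT16, CT20 and CT24, each pair at the same clock hour and 24 h apart. Both members of a pair fall in the dark part of the cycle. The LD arrays lay 4, 8 and 12 h after the last lights-off and the DD arrays 28, 32 and 36 h after it. ZT24 coincides with lights-on, and the labels do not say on which side of the switch those flies were frozen. Every DD array is 1 day later than its partner, so the missing light, the age of the flies and the order of collection cannot be told apart. Age and sex are not given in the labels. In pooled heads, fewer cells of a type and less RNA per cell cannot be told apart.

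The circadian clock of the fly is a feedback loop in which the transcription factors Clock and Cycle switch on period and timeless early in the night. The proteins made from these genes later shut the same transcription off, and light resets the loop because the photoreceptor Cryptochrome marks Timeless for destruction. The loop keeps running in darkness, so clock-driven transcripts are known to cycle in both regimes. Many other head transcripts follow light, feeding, activity or age instead.

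The 6 night arrays resembled each other closely, with pairwise correlations of 0.979 to 0.995 across probe sets. Head tissue was present on all 6. Of the 19 measured phototransduction genes, 16 or 17 lay above the array median on each. For the 20 neuronal markers the count was 12 or 13, little above the even split that a median makes of all probe sets. The 3' minus 5' signal of control transcripts for eIF-4a, GAPDH and actin, a sign of RNA integrity, was 1.79 to 2.20 (log2) at night and 1.69 to 3.45 in the daytime arrays. The median absolute difference between the days over all genes was 0.105, 0.107 and 0.101 (log2) at 16, 20 and 24 h, against 0.167, 0.142 and 0.208 at 4, 8 and 12 h. Differences of at least 1 were found in 68, 86 and 45 genes at the night hours, and in 190, 91 and 445 at the daytime hours. The night pairs were therefore the more alike ones.

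Of 10843 genes, 1895 were higher in DD in all 3 pairs (17.5%) and 1302 were lower in all 3 (12%), together 29.5%. The median difference over all genes was 0.01 (log2). With every pair differing by at least 0.2, 82 genes were higher (0.756%) and 97 lower (0.895%), or 1.65% together. In 725 genes all 3 DD arrays lay above all 3 LD arrays (6.69%), and in 410 all 3 lay below (3.78%), together 10.5%. The paired limma test, which fitted clock hour as a block to the 6 arrays, left 0 of 13966 probe sets with an adjusted p under 0.05. The smallest adjusted p was 0.0965, for CG34166, and an unadjusted p under 0.05 was reached by 1020 probe sets (7.3%) where 698 would be expected by chance. Each gene below is therefore given by its values, and higher or lower describes these 6 arrays.

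The genes with the widest separation included cuticle genes among those higher in DD and metabolic genes among those lower in DD. They are the 15 in each direction whose smallest pair difference was largest. The last named higher gene, CG11458, had a smallest difference of 0.41 (log2) and the next gene 0.40. The last named lower gene, Acadvl, had 0.46 and the next gene 0.44. The arrays of the days did not overlap in 13 of the 15 higher genes and in 9 of the 15 lower genes. Among all genes these shares were 6.69% and 3.78%. Since the 15 were chosen on these same arrays, the counts follow in part from the choice.

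**Figure D1:**
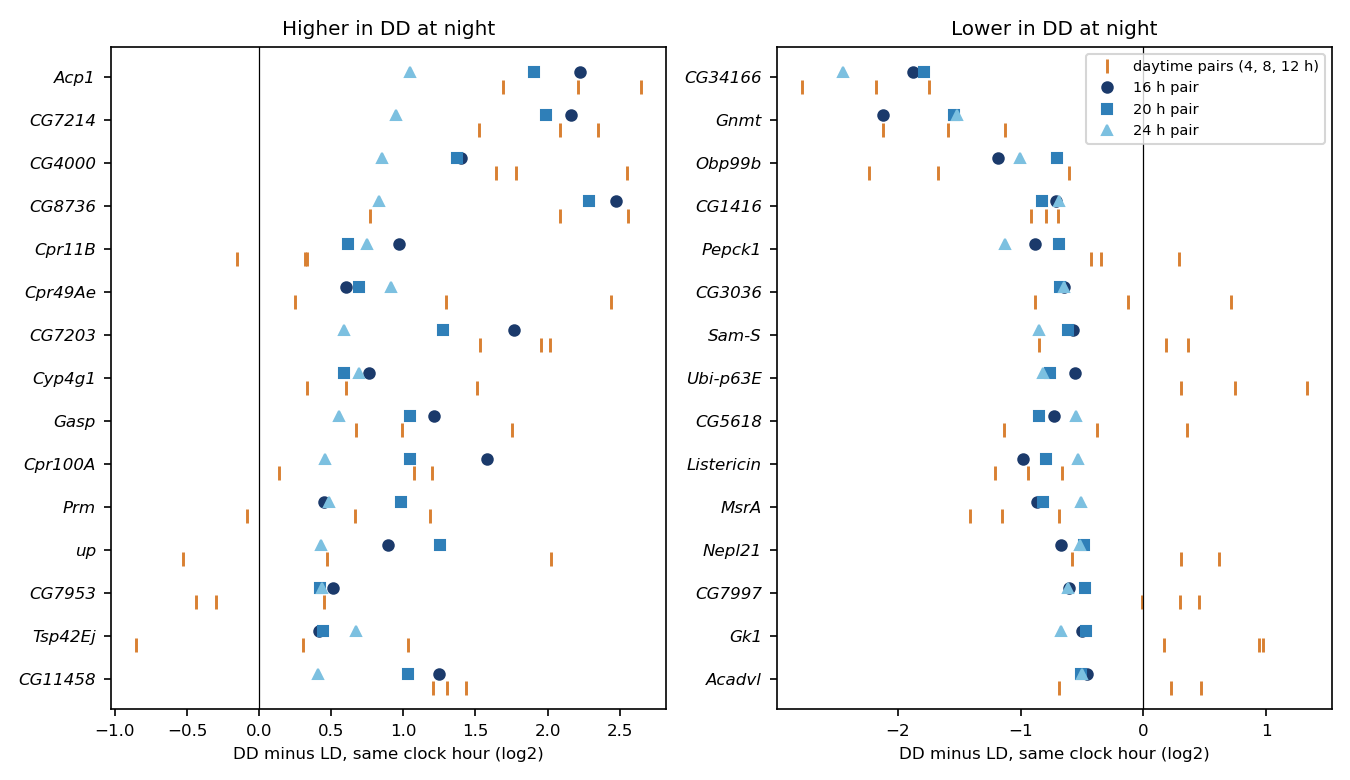
DD minus LD difference (log2, horizontal axis) at the same clock hour for the 15 genes higher and the 15 lower in DD in all 3 night pairs, with the largest smallest-pair difference. Blue symbols are the 16, 20 and 24 h pairs, 1 array minus 1 array, and orange ticks are the daytime pairs, which were not used to choose the genes; CG34166 and Gnmt lie below zero in all 6 pairs, while the daytime ticks of Ubi-p63E and Gk1 lie above zero.

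Acp1, which encodes an adult cuticle protein, measured 9.38, 9.59 and 9.59 (log2) at ZT16, ZT20 and ZT24 and 11.61, 11.50 and 10.63 at CT16, CT20 and CT24. LD was level through the night, and DD was higher throughout with its lowest value at 24 h. The mean difference of Acp1 was 1.73 ± 0.22 (log2), or 3.31-fold, with a limma adjusted p of 0.191. Here and below, ± is limma's moderated SE, which draws a gene's spread towards that of all probe sets. It is therefore not the scatter of the gene's own 3 pairs, which can be wider or narrower. CG7214, its neighbour on chromosome arm 2L, measured 8.43, 8.64 and 8.31 in LD and 10.59, 10.63 and 9.26 in DD, a mean difference of 1.70 ± 0.23. This gene had the same shape as Acp1, with separate ranges and a smaller gap at 24 h. CG8736 was at 7.30, 7.30 and 7.38 in LD and at 9.78, 9.59 and 8.21 in DD. Its mean difference of 1.86 ± 0.31, or 3.64-fold, was the largest of the 15, and its gap narrowed from 2.47 at 16 h to 0.83 at 24 h.

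Some further genes of this group showed the same narrowing, while Cpr49Ae and Tsp42Ej had their widest gap at 24 h. CG7203 gave pair differences of 1.76, 1.27 and 0.59 (log2) at 16, 20 and 24 h. CG4000 gave 1.403, 1.37 and 0.86. CG11458 gave 1.25, 1.03 and 0.41. In each of these, every DD array lay above every LD array. Among the 15 higher genes, 9 had their smallest difference at 24 h, as had 48 of the 82 genes with differences of at least 0.2. The same held for 714 of all 1895 higher genes and for 34 of the 97 lower genes at that margin. The median difference of those 82 was 0.40 (log2) at 16 and 20 h and 0.32 at 24 h.

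Other chitin and cuticle genes joined Acp1 among the 15. Cpr proteins bind chitin through a conserved domain and form much of the insect cuticle. Cpr11B measured 7.05, 6.56 and 6.43 (log2) in LD and 8.02, 7.17 and 7.17 in DD, a mean difference of 0.78 ± 0.09. Cpr49Ae measured 5.60, 5.52 and 5.25 in LD and 6.20, 6.22 and 6.16 in DD, a mean difference of 0.74 ± 0.08. Both genes had separate ranges, and Cpr49Ae had its widest gap, 0.91, at 24 h, the opposite of Acp1. Cpr100A gave differences of 1.58, 1.04 and 0.46 across the night. Gasp, which encodes a secreted chitin-binding protein, measured 4.30, 4.44 and 4.30 in LD and 5.52, 5.48 and 4.85 in DD. Its LD values lay under the array medians of about 4.95 and 2 of its DD values above them.

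The cuticle genes as a list leaned the same way. Of 86 measured members, 37 were higher in all 3 pairs and 0 were lower, against 17.5% and 12% of all genes. In 24 members the arrays did not overlap, all with DD higher, against 6.69% of all genes, and 13 were higher by at least 0.2 in every pair, against 0.756%. The median difference was 0.09 (log2), so most members differed little and a small number differed a lot. The 58 Cpr genes gave 22 higher and 0 lower with a median of 0.08, and the other 28 members gave 15 and 0 with 0.11. The mean level of the list was 5.59, 5.60 and 5.68 in LD and 5.78, 5.81 and 5.77 in DD. None of the members passed in limma, where the smallest adjusted p was 0.168.

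The remaining named higher genes fall outside the cuticle. Cyp4g1 encodes the cytochrome P450 that completes hydrocarbon synthesis in oenocytes. It measured 5.24, 4.95 and 8.13 (log2) in LD and 6.0, 5.54 and 8.83 in DD. Within either night it was about as low at 16 as at 20 h and then higher by 3.18 (LD) and 3.29 (DD) at 24 h, so the ranges overlap while each pair differs by 0.59 to 0.76. At 4, 8 and 12 h it was also high, at 8.76, 7.88 and 9.265 in LD and 9.09, 8.48 and 10.78 in DD. The mean level of the midgut markers, described below, was likewise lowest at 16 and 20 h on both days, and a link was not tested. The genes of the contractile apparatus among the 15, Prm (paramyosin) and up (troponin T), had mean differences of 0.64 ± 0.12 and 0.86 ± 0.15. A second, dimmer probe set of up differed by only 0.02. Tsp42Ej, a tetraspanin gene, measured 8.20, 8.06 and 8.29 in LD and 8.62, 8.50 and 8.96 in DD. The dim gene CG7953 differed by 0.45 ± 0.07, and its other probe set by -0.07, of the opposite sign.

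**Figure D2:**
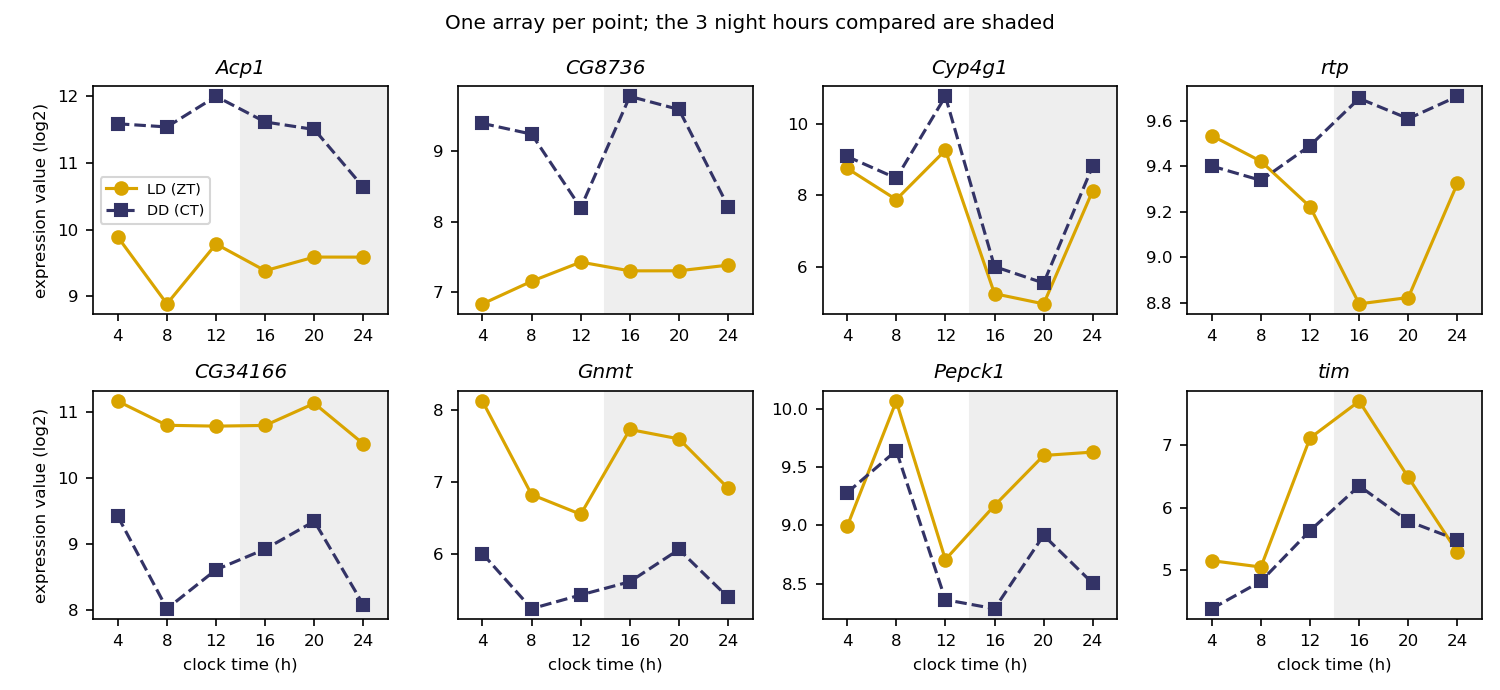
Deposited expression value (log2, vertical axis) against clock time (h) for 8 genes, with 1 array per point; circles are LD and squares DD, and the 3 night hours compared are shaded. Acp1 and CG8736 lie higher and CG34166 and Gnmt lower in DD at all 6 hours, and Cyp4g1 is low only at 16 and 20 h on both days. rtp is higher in DD at the 3 night hours and mixed in sign by day, and the tim curves meet at 24 h.

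Among the genes lower in DD, CG34166 stood furthest apart. It measured 10.80, 11.13 and 10.52 (log2) at ZT16, ZT20 and ZT24 and 8.93, 9.35 and 8.08 at CT16, CT20 and CT24. Both nights had their highest value at 20 h, and the lowest LD array lay above the highest DD array by more than 1 unit. The mean difference was -2.03 ± 0.14 (moderated SE), so the level was 4.10-fold higher in LD, with a limma adjusted p of 0.0965.

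Gnmt had the next largest smallest-pair difference, and Sam-S, of the same metabolic list, is also among the 15. Gnmt encodes glycine N-methyltransferase, which uses up S-adenosylmethionine, and Sam-S encodes the synthetase that makes it. Gnmt measured 7.74, 7.60 and 6.92 (log2) in LD and 5.61, 6.06 and 5.40 in DD, a mean difference of -1.73 ± 0.13 and a limma adjusted p of 0.102. Sam-S measured 10.18, 10.24 and 9.64 in LD and 9.61, 9.62 and 8.79 in DD, a mean difference of -0.68 ± 0.08. Neither gene overlapped between the days, though for Sam-S the margin between ZT24 and CT20 was small. The list of one-carbon and amino acid metabolism as a whole was mixed. Of its 29 members, 3 were higher and 6 lower in all 3 pairs, against 17.5% and 12% of all genes. Its median was -0.03, and 0.03 without the 24 h pair. Mthfs, a folate-cycle enzyme gene, was higher in DD in all 3 pairs with a mean difference of 0.31 ± 0.07. Nmdmc, which encodes another folate-cycle enzyme, was mixed in sign with a mean of 0.33 ± 0.12.

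Of 33 carbohydrate genes, 7 were higher and 5 lower in all 3 pairs, or 21.2% and 15.2%, near the 17.5% and 12% of all genes. Their median was 0.02 (log2) and lay between -0.01 and 0.05 with 1 pair left out. The 4 members of smallest p are described here. Pepck1 encodes phosphoenolpyruvate carboxykinase, the committed enzyme of gluconeogenesis. It measured 9.17, 9.60 and 9.63 (log2) in LD and 8.29, 8.92 and 8.50 in DD, a mean difference of -0.90 ± 0.10. The gene fbp, for fructose-1,6-bisphosphatase of the same pathway, measured 7.499, 7.69 and 7.91 in LD and 7.29, 7.35 and 7.39 in DD. Its DD array at 24 h still lay below its LD array at 16 h. Treh, which encodes the trehalose-splitting enzyme trehalase, differed by -0.43 ± 0.12, with overlapping ranges. Pglym78, a phosphoglycerate mutase gene of glycolysis, was 10.02, 10.10 and 10.15 in LD and 10.35, 10.38 and 10.41 in DD.

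Of 31 lipid metabolism genes, 10 were lower and 2 higher in all 3 pairs, against 12% and 17.5% of all genes, and 24 had a negative mean. The median difference was -0.15 (log2), and it was -0.07 without the 16 h pair and -0.08 without the 20 h pair. Acsl, a long-chain acyl-CoA synthetase gene, measured 7.65, 7.82 and 7.18 in LD and 7.33, 7.03 and 6.40 in DD, a mean difference of -0.63 ± 0.11. AcCoAS, for acetyl-CoA synthetase, measured 9.44, 9.29 and 9.01 in LD and 8.80, 8.69 and 8.86 in DD, with no overlap. The thiolase gene yip2 and the perilipin gene Lsd-1 differed by -0.25 ± 0.08 and -0.21 ± 0.07. Acadvl, which encodes a fatty acid oxidation enzyme, is among the 15 lower genes at -0.49 ± 0.06, with nearly equal pair differences. Gk1, a glycerol kinase gene, is there at -0.55 ± 0.07. The median of the list was -0.19 at 16 h, -0.15 at 20 h and 0.06 at 24 h. Without the 24 h pair 20 members were lower in both remaining pairs, as were 2621 of all 10843 genes. The smallest limma adjusted p of the list was 0.340.

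Other genes of the 15 include an odorant-binding protein gene and genes of protein upkeep and defence. Obp99b, of the odorant-binding family and also on the fat body and sex-biased list, measured 8.59, 8.04 and 8.61 (log2) in LD. In DD it measured 7.41, 7.34 and 7.61. Listericin, an antibacterial peptide gene, measured 9.05, 9.13 and 9.48 in LD and 8.07, 8.34 and 8.95 in DD. MsrA, which repairs oxidised methionine, measured 6.88, 6.71 and 6.33 in LD and 6.02, 5.89 and 5.83 in DD. All 3 had separate ranges, and for Listericin the highest DD and lowest LD arrays differed by under 0.1. Ubi-p63E, a polyubiquitin gene, gave 11.05, 10.78 and 9.57 in LD and 10.50, 10.02 and 8.75 in DD. Its level dropped through both nights, so the ranges overlap although the pair differences stayed between -0.56 and -0.82. The neprilysin-like gene Nepl21 and the genes CG1416, CG3036, CG5618 and CG7997 had mean differences between -0.56 and -0.74.

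Among the 26 lists, the largest share of members with the same sign was found in mitochondrial respiration, the machinery that turns fuel into ATP. Of 54 measured members, 39 were higher in DD in all 3 pairs and 0 were lower, against 17.5% and 12% of all genes, and 51 had a positive mean. Complex I contributed 21 of 26 and ATP synthase 9 of 12. In 18 members the arrays did not overlap, all with DD higher, against 6.69% of all genes. COX5A, a cytochrome c oxidase subunit gene, measured 10.29, 10.36 and 10.72 (log2) in LD and 10.73, 10.74 and 11.01 in DD, a mean difference of 0.37 ± 0.07. ND-18, ND-19 (complex I) and ATPsynF (ATP synthase) differed by 0.36 ± 0.07, 0.37 ± 0.08 and 0.36 ± 0.08. Each difference is small, and the smallest limma adjusted p was 0.362. At an unadjusted p under 0.05 there were 35 members, against 7.65% of all genes.

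The mitochondrial difference was wider earlier in the night. The list's median was 0.31 at 16 h, 0.34 at 20 h and 0.14 at 24 h. Its mean level was 9.21, 9.28 and 9.46 in LD and 9.56, 9.55 and 9.51 in DD, so LD approached DD by 24 h while DD stayed level. The mitochondrial chaperone gene Hsc70-5 went the other way, at 6.28, 6.22 and 5.94 in LD and 5.64, 5.69 and 5.75 in DD. Sod2, the superoxide dismutase of mitochondria, was 8.35, 8.27 and 8.61 in LD and 8.64, 8.64 and 8.87 in DD.

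**Figure D3:**
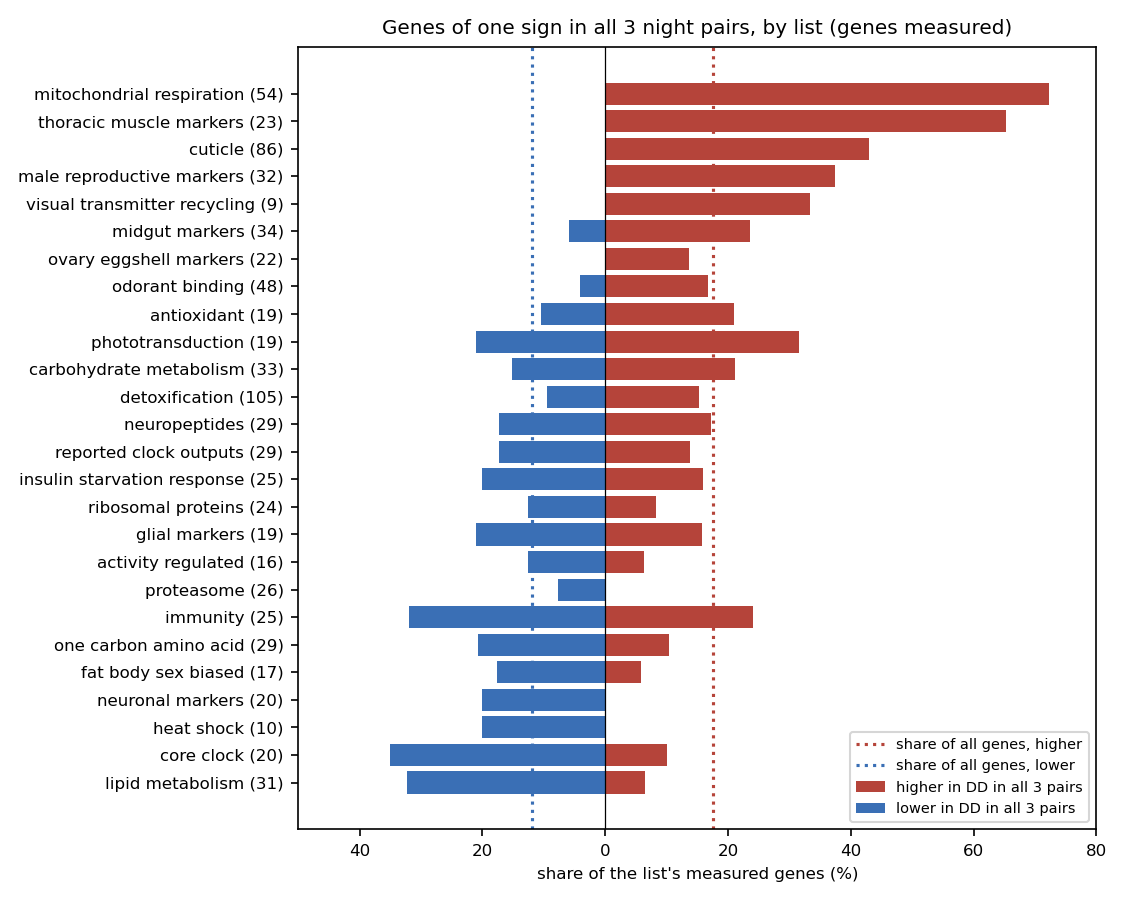
Share of each gene list (%, horizontal axis, with the number of genes measured in brackets) that was higher in DD (right) or lower in DD (left) in all 3 night pairs; dotted lines are the shares among all genes, 17.5% and 12%. Mitochondrial respiration, thoracic muscle markers and cuticle have the longest bars to the right and none to the left.

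Muscle markers differed along with these lists. Of 23 thoracic muscle genes, 15 were higher in DD in all 3 pairs and 0 lower, against 17.5% and 12% of all genes. The median of the list was 0.28 (log2). Mlc2, a myosin light chain gene, measured 11.57, 11.58 and 11.96 in LD and 12.37, 12.51 and 12.28 in DD. Tm2, a tropomyosin gene, measured 6.57, 6.66 and 7.01 in LD and 7.42, 7.55 and 7.38 in DD. Neither gene overlapped, and both LD courses were highest at 24 h. Mlp84B, a muscle LIM protein gene, differed by 0.46 ± 0.08. Act88F, the actin gene of indirect flight muscle, was 4.09, 3.82 and 6.10 in LD and 4.21, 4.78 and 7.27 in DD. Of these night values, the 2 highest were the 24 h arrays of both days.

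Among markers of tissue outside the head, the midgut and male lists differed mainly at 24 h. The mean level of the 34 midgut markers was 5.79, 5.80 and 6.45 (log2) in LD and 5.78, 5.80 and 6.82 in DD. The 32 male reproductive markers stood at 4.10, 4.14 and 4.43 in LD and 4.11, 4.17 and 4.78 in DD, below the array medians throughout. Thoracic muscle markers were at 6.75, 6.76 and 7.12 in LD and 7.005, 7.29 and 7.40 in DD. At both 16 and 20 h the median difference was 0.01 for the midgut list and 0.04 for the male list. At those hours it was 0.07 and 0.14 for cuticle, 0.31 and 0.34 for mitochondrial respiration and 0.16 and 0.36 for muscle. At 24 h the midgut and male medians were both 0.27. The muscle list differed at all 3 hours, and the part of tissue outside the head in the mitochondrial and cuticle differences was not tested. Ovary markers (5.26 to 5.33) and neuronal markers (5.36 to 5.42) were level across the 6 arrays.

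**Figure D4:**
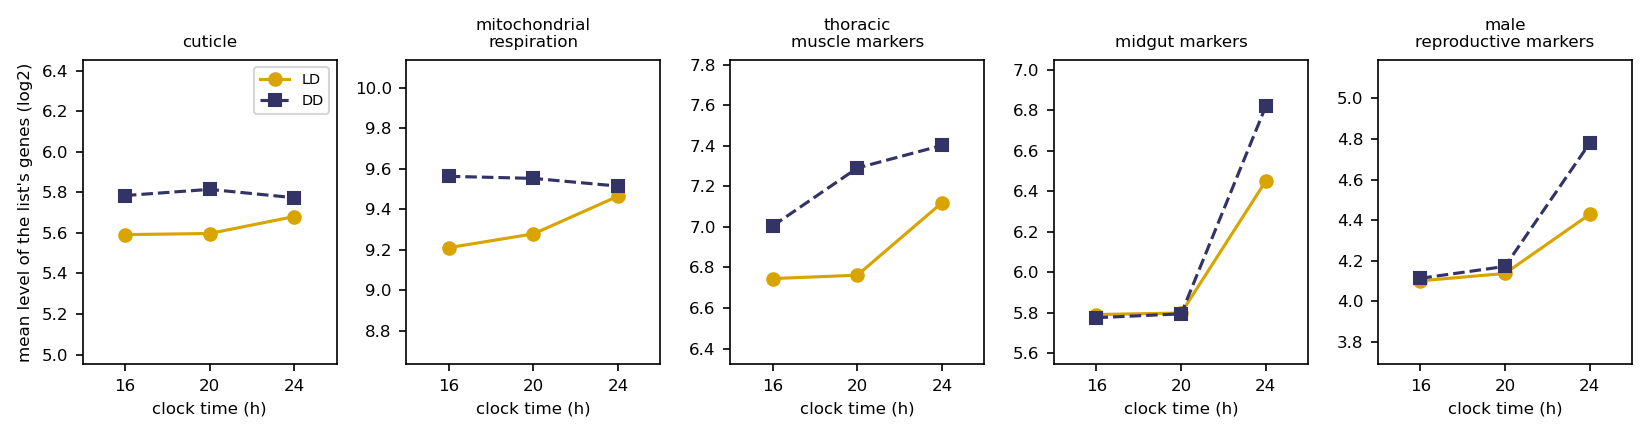
Mean level of the genes in 5 lists (log2, vertical axes of equal span) on the 6 night arrays against clock time (h); circles are LD, squares DD, 1 array per point. Cuticle and mitochondrial lists lie apart at 16 and 20 h, midgut and male reproductive lists separate at 24 h, and muscle lies apart at all 3 hours.

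Among the individual marker genes, Jon25Biii, a midgut protease gene, was 5.05, 5.01 and 6.72 (log2) in LD and 5.19, 5.32 and 7.97 in DD. Among the night hours it was highest at 24 h on both days. Jon65Ai, of the same family, and the trypsin gene etaTry differed by 0.26 ± 0.09 and 0.18 ± 0.07, and the lysozyme gene LysS by -0.26 ± 0.08. Of the 34 midgut markers, 8 were higher and 2 lower in all 3 pairs, and of the 32 male markers 12 and 0. The shares among all genes were 17.5% and 12%. The sperm protein genes Mst87F and Mst84Dd differed by 0.26 ± 0.06 and 0.31 ± 0.12, and the accessory gland peptide genes SP and Anp by 0.23 ± 0.07 and 0.28 ± 0.09.

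Several clock genes differed most at 16 h, early in the night. Of 20 core clock genes measured, 7 were lower in DD in all 3 pairs, 2 were higher and 11 were mixed, against 12% lower and 17.5% higher among all genes. The median was -0.08 (log2), and -0.04 without the 16 h pair. The smallest limma adjusted p among them was 0.251. timeless (tim) measured 7.70, 6.49 and 5.29 in LD and 6.35, 5.79 and 5.49 in DD. It was lower in DD by 1.35 at 16 h and by 0.70 at 20 h and higher by 0.20 at 24 h, so it does not meet the rule of one sign. From 16 to 24 h its level differed by 2.41 in LD and by 0.86 in DD. Its second probe set gave a mean difference of -0.39 in place of -0.62, and the other, with the lowest signal, gave -0.00.

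The courses of vrille, period and Usp8 through the night were as follows. vrille (vri), which encodes a repressor of Clock transcription, was 7.54, 5.997 and 5.46 (log2) in LD and 6.32, 5.85 and 5.75 in DD. The difference between 16 and 24 h was 2.08 in LD and 0.57 in DD. For period (per), the partner of timeless, these were 0.59 and 0.11, with values of 6.11, 5.89 and 5.52 in LD and 5.72, 5.72 and 5.61 in DD. Usp8, a deubiquitinase gene of the clock, measured 7.53, 6.51 and 5.09 in LD and 6.61, 5.60 and 4.97 in DD. Its mean difference was -0.65 ± 0.17, with -0.92, -0.91 and -0.12 at 16, 20 and 24 h, so unlike tim it kept one sign.

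**Figure D5:**
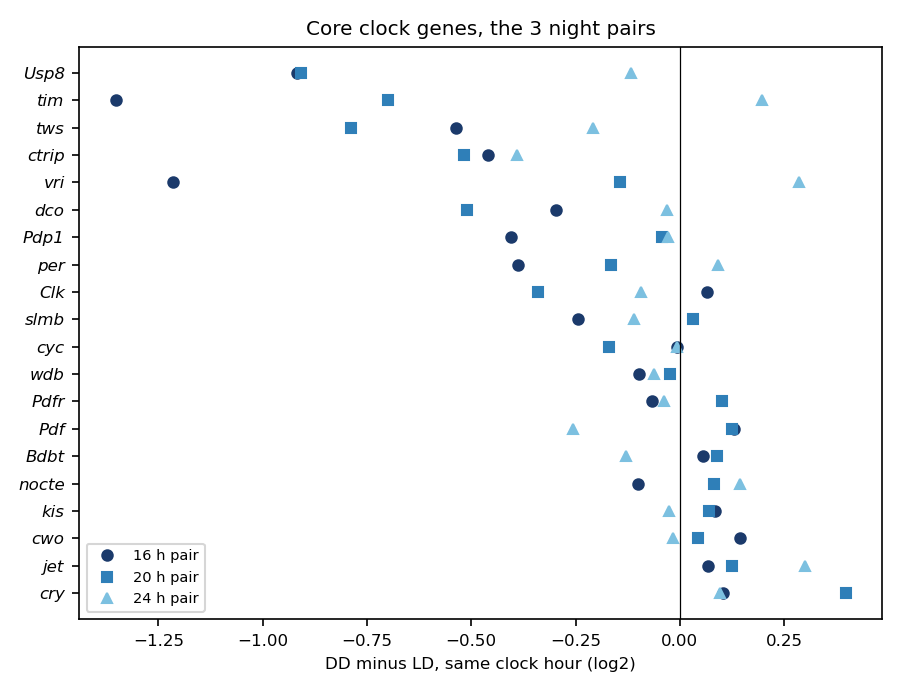
DD minus LD difference (log2, horizontal axis) at 16, 20 and 24 h for the 20 measured core clock genes, ordered by mean difference, each symbol 1 array minus 1 array. tim and vri lie furthest left at 16 h (-1.35 and -1.22) and to the right of zero at 24 h, whereas Usp8, tws and ctrip lie left of zero at all 3 hours.

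Regulators that modify clock proteins made up most of the lower members. tws encodes a subunit of the phosphatase that acts on Period. It was 4.30, 4.71 and 3.98 (log2) in LD and 3.76, 3.92 and 3.78 in DD, with no overlap but all values below the array medians. ctrip, a ubiquitin ligase gene for Clock, was 5.28, 5.52 and 4.93 in LD and 4.82, 4.998 and 4.54 in DD, and its second, dimmer probe set gave a mean difference of 0.01. dco encodes the kinase Doubletime, and its pair differences were -0.30, -0.51 and -0.03. Pdp1, cyc and wdb completed the 7 lower genes with mean differences of -0.16, -0.06 and -0.06, each under 0.05 in at least 1 pair.

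The light input genes were the higher ones. cry, the blue light receptor gene, was 7.85, 7.41 and 8.08 (log2) in LD and 7.96, 7.81 and 8.17 in DD, a mean difference of 0.20 ± 0.09 with overlapping ranges. jet encodes the F-box protein that takes part in light-driven loss of Timeless. It was 5.18, 5.19 and 5.11 in LD and 5.24, 5.31 and 5.41 in DD, all 3 DD arrays above all 3 LD arrays by small margins. Clk and slmb had mean differences of -0.12 and -0.11 with mixed signs. For cwo, kis, nocte, Bdbt, Pdfr and the neuropeptide gene Pdf the mean lay between -0.00 and 0.06. In kis and cwo other probe sets gave means of the opposite sign.

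Genes of the phototransduction cascade, which carries the signal from rhodopsin to the ion channels of the photoreceptor, were divided. Of 19 members, 6 were higher and 4 lower in all 3 pairs, or 31.6% and 21.1%, against 17.5% and 12% of all genes. The median was 0.03 (log2), with -0.01 without the 16 h pair and 0.12 without the 24 h pair. rtp, which encodes the rhabdomere protein retinophilin, measured 8.79, 8.82 and 9.33 in LD and 9.70, 9.61 and 9.71 in DD, a mean difference of 0.69 ± 0.11. Gbeta76C, the eye-specific G protein beta subunit gene, measured 9.15, 9.13 and 9.88 in LD and 10.17, 10.04 and 9.92 in DD. In both genes DD stayed high all night and LD was nearest to it at 24 h. Arr1, an arrestin gene whose product ends the rhodopsin signal, went the other way, at 11.53, 11.69 and 11.46 in LD and 11.09, 11.10 and 11.41 in DD. Its gap likewise closed by 24 h, to 0.05. ninaB, which makes the precursor of the rhodopsin chromophore, differed by 0.25 ± 0.08.

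Genes that handle the photoreceptor transmitter histamine had 3 of 9 members higher and 0 lower, against 17.5% and 12% of all genes. Hdc, which makes histamine, measured 5.53, 5.56 and 5.87 (log2) in LD and 5.84, 5.85 and 6.11 in DD. ebony (e), which encodes the enzyme that inactivates histamine in glia, measured 5.91, 5.90 and 6.17 in LD and 6.28, 6.11 and 6.86 in DD. Both were higher in each pair with ranges that overlap. tan (t), for the enzyme that frees histamine again, was 6.92, 7.37 and 8.34 in LD and 8.33, 8.32 and 8.23 in DD. It was level in DD, and LD reached the same height at 24 h. The transporter gene Balat differed by 0.19 ± 0.10 with mixed signs.

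Neuropeptide and immunity genes were found in both directions, against 17.5% higher and 12% lower among all genes. Of 29 neuropeptide genes, 5 were higher and 5 lower, 17.2% each and so near the shares of all genes. Nplp3 measured 11.69, 12.00 and 12.05 (log2) in LD and 12.79, 12.66 and 12.29 in DD. The eclosion hormone gene Eh differed by 0.28 ± 0.06, CCHa2 by 0.19 ± 0.08 and myosuppressin (Ms) by 0.18 ± 0.08. Of 25 immunity genes, 6 were higher and 8 lower, and the arrays did not overlap in 2 and 3 of them, against 6.69% and 3.78% of all genes. The defensin gene Def was higher by 0.30 ± 0.07 with no overlap, and the thioester protein gene Tep4 differed by -0.29 ± 0.07 with no overlap. The peptide gene BomBc2 differed by 0.28 ± 0.09.

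For the stress and detoxification lists, the shares among all genes were again 17.5% higher and 12% lower. Of 10 heat shock genes, 2 were lower (Hsc70-5 and DnaJ-1, the latter by -0.23 ± 0.07) and 0 higher, and Hsf and Hsc70-4 were mixed. Among 19 antioxidant genes 4 were higher and 2 lower, and the 4 higher ones had separate ranges. The ferritin gene Fer1HCH differed by 0.23 ± 0.07 and the malic enzyme gene Men by -0.25 ± 0.08. Detoxification genes gave 16 higher and 10 lower of 105. Cyp6g1, known for insecticide resistance, measured 7.02, 7.39 and 6.88 (log2) in LD and 7.57, 7.76 and 7.28 in DD. Cyp4d1 and Cyp6t1 differed by 0.35 ± 0.07 and -0.27 ± 0.08, both with no overlap.

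For the lists that follow, the shares among all genes were likewise 17.5% higher and 12% lower. Of 48 odorant-binding genes, 8 were higher and 2 lower, with Obp44a at 0.34 ± 0.08 (log2) and Obp99c at 0.19 ± 0.07 opposite to Obp99b. Fat body and sex-biased head genes gave 1 higher and 3 lower of 17. Of the 29 reported clock outputs 4 were higher and 5 lower, among them CG9649 at 0.32 ± 0.08. The 16 activity-regulated genes gave 1 higher and 2 lower, with Arc1 at 7.42, 6.43 and 6.97 in LD and 6.59, 6.42 and 6.21 in DD. Insulin and starvation response gave 4 higher and 5 lower of 25. Of the neuronal markers 0 were higher and 4 lower, including Syn at -0.31 ± 0.07, a dim gene with all values below the array medians. Of 19 glial markers 3 were higher and 4 lower, with the transporter gene Eaat2 at -0.35 ± 0.11. Ribosomal proteins (2 higher and 3 lower of 24), the proteasome (0 and 2 of 26) and ovary markers (3 and 0 of 22) stayed close to zero in the median.

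The daytime arrays, which played no part in choosing the genes, showed how far each direction recurred. Of all genes, 11.1% were higher and 12% lower in DD in all 3 daytime pairs. Of the 1895 genes higher at night, 236 were also higher in all 3 daytime pairs (12.5%) and 169 were lower in all 3. Among the 82 with differences of at least 0.2, 30 were higher in all 3 daytime pairs (36.6%) and 0 were lower. Their median difference was 0.60 (log2) at 4 h, 0.34 at 8 h and 0.05 at 12 h.

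The lower genes were looked up in the same way. Of the 1302 genes lower at night, 191 were lower in all 3 daytime pairs (14.7%) and 120 were higher. Of the 97 with differences of at least 0.2, 16 were lower in all 3 (16.5%) and 11 were higher in all 3. The median of the 97 was -0.33 (log2) at 4 h, 0.17 at 8 h and 0.03 at 12 h. Only the 8 h pair had a 3' minus 5' control signal within the range of the night arrays or close below it on both days, and there 64 of the 82 higher genes were positive (78.0%, against 47.5% of all genes) and 32 of the 97 lower genes were negative (33.0%, against 52.4%). Whether the higher and lower genes differ in this was not tested.

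Of the named genes, 10 of the 15 higher ones were higher in all 3 daytime pairs, and these include Acp1, CG7214, CG8736, CG4000 and Cyp4g1. Among the 15 lower ones, 6 were lower in all 3 (CG34166, Gnmt, Obp99b, CG1416, Listericin and MsrA), 7 were mixed and 2 were higher in all 3. In the cuticle list, 13 of the 37 members higher at night were higher in all 3 daytime pairs, and in the mitochondrial list 9 of 39. The mitochondrial median was 0.48 (log2) at 4 h, 0.27 at 8 h and -0.06 at 12 h.

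A direct test asked whether the DD minus LD difference at night departed from that by day. In limma with all 12 arrays, clock hour as a block and a regime by night term, 0 of 13966 probe sets passed, with a smallest adjusted p of 0.844, and an unadjusted p under 0.05 was reached by 535 (3.83%). No gene in these arrays is therefore called particular to the night. Neighbouring genes with differences of at least 0.2 in one direction were Acp1 with CG7214 on arm 2L, and Cpr92F with CG4000, CG5746 with CG6454 and Nepl18 with Nepl19 on arm 3R. Among the 1524 probe sets without a single gene name, 18 were higher and 16 lower by that margin.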

How the data were processed

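The measurements are log2 expression values, 1 per probe set, deposited by the authors from Affymetrix arrays of biotin-labelled head RNA and, per the submitters' processing notes, computed by RMA. Its version, and which arrays were normalized as a set, is not given in the sources used here. Because RMA equalizes the distributions of arrays, a shift of most transcripts in one direction would be removed. Low values compress differences, and signal over background was not analysed here. The number of arrays limits the precision.

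Arrays were grouped by the hour and regime in their titles. The 44 control probe sets were left out, which left 13966. Of all 14010 probe sets, 12442 had 1 gene, 327 several and 1197 none, from the platform annotation, and 12393 of the first matched a RefSeq gene. A gene was represented by its probe set of highest mean over 12 arrays, which gave 10843 genes, with no filter on low values. Tests used limma 3.58.1 in R 4.3.3 (lmFit and eBayes, Benjamini-Hochberg over all 13966, threshold 0.05). The night fit had clock hour as a block and 2 residual degrees of freedom, and the night against day fit had 4. A p-value measures the scatter of single arrays, which may be technical. The signs of 3 pairs cannot give an exact two-sided p below 0.25, nor 3 against 3 arrays below 0.1. The fits were tested on simulated data.

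The comparison, its 26 lists of genes and the naming rule were chosen with earlier results of these data known. The lists hold 771 measured genes, 30 of them in several lists. List entries that had matched a wrong gene were removed after the values were seen, as were 7 genes of uncertain function on the cuticle list, of which 6 were higher in all 3 pairs. The naming rule takes, among genes of one sign in all 3 pairs, the 15 higher and 15 lower with the largest smallest difference, all core clock genes, the 4 members of smallest p of each list, and markers of other tissues. Neighbours come from the RefSeq gene order. Alternatives were no block, all 12 arrays, centring, quantile normalization, a filter at the median level, a variance trend, and leaving out each pair. Sequences were not used here.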

Additional observations from a re-analysis of the deposited data

Results flagged for a closer look

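Some results had one sign in all 3 night pairs and the opposite sign in all 3 daytime pairs. By limma's regime by night term none of these genes passed over all probe sets. The night minus day difference was -1.51 (log2) for the polyubiquitin gene Ubi-p63E, whose daytime pairs were 0.74, 1.33 and 0.31. It was -1.24 for the glycerol kinase gene Gk1, with 0.98, 0.95 and 0.17 by day. The insulin receptor substrate gene chico gave -0.54, and the odorant-binding gene Obp56a gave -0.69. Sesn, a sestrin gene with values below the array medians, gave 0.36, and the chorion gene Cp7Fc gave 0.26. The median of the ovary and eggshell list differed by 0.0827, and that difference was not tested.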

How the results depend on the processing

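The count of probe sets past the limma threshold was 0 with no replicate block (smallest adjusted p 0.453), in the 12-array fit (0.205), centred (0.102), quantile normalized (0.0857), above the median level (0.144) and with a variance trend (0.0871). Leaving out 1 pair gave 0 to 5, the 5 without the 24 h pair. These were Acp1 (2.07, adjusted p 0.0145), CG34166 (-1.83, 0.0104), CG8736 (2.38, 0.0104), CG7214 (2.08, 0.0104) and CG4000 (1.39, 0.0237), by limma. Without the 16 h or the 20 h pair the smallest adjusted p was 0.240 and 0.0940. Deviations of same-hour arrays from their group means correlated at 0.136, 0.0751 and 0.569 for 16, 20 and 24 h. The pairing was thus weak at 16 and 20 h and stronger at 24 h, and the block was set by the design. Genes of one sign numbered 1094 higher and 703 lower above the median level, which has fewer genes, and 82 and 97 with every difference at least 0.2. They numbered 725 and 410 without overlap of the arrays. With 1 pair left out, which asks for fewer equal signs, there were 3064 to 3387 higher and 2390 to 2621 lower. The share with the same sign in every daytime pair was 36.6% of the 82 higher genes at the 0.2 margin, against 11.1% of all genes. For the 97 lower genes it was 16.5%, against 12% of all genes. With the 8 h pair alone and no margin, the share was 45.9% of the 1895 higher and 45.2% of the 1302 lower genes. Among all genes, 47.5% were positive and 52.4% negative at 8 h, so both of these shares lay below those of all genes. Leaving out pairs gave 11 to 20 lower lipid genes. With the 7 genes taken off, an alternative chosen after seeing the data, the cuticle list had 43 of 93 higher. Of 1167 results for 132 named genes, 1158 kept their sign. The other 9 belonged to 7 genes, whose means with 1 pair left out ranged from -0.680 to 0.0715 for vri, -0.0655 to 0.128 for Pdf, -0.0515 to 0.0315 for Pdfr, -0.0095 to 0.114 for nocte, -0.037 to 0.0725 for Bdbt, -0.462 to 0.06 for Hsc70-4 and -0.68 to 0.042 for apolpp. The cause of these changes was not tested. These 7 genes all had mixed signs over the night pairs. A named gene of one sign in every night pair must keep that sign when a pair is left out. The fits with no block and with 12 arrays repeat the mean difference of the main fit. For genes of one sign those results were therefore fixed in advance, and the 1158 is no measure of their robustness. The night against day count was 0 under every alternative run. With 1 array per point, no value here has a replicate at its own hour.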
